A study of Mus musculus with 30 samples.

Results

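Genes of the alveolar type 1 cell and of caveolae were followed in mouse lung after 10% oxygen. They are 9 genes, of 15965 with a symbol of their own on the arrays, chosen by name, Ager, Aqp5, Aqp1, Pdpn, Hopx, Cav1, Cav2, Clic5 and Akap5, and every probe set whose annotation gives exactly 1 of these symbols was taken. That gave 13 probe sets of the 36701 that are not controls. Of these, 12 lay above a detection floor on at least 2 arrays and were tested among 25801 probe sets in all.

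Alveolar type 1 cells are the flat, thin cells that line most of the alveolar surface and across which gas passes to the capillary. Caveolae are small pits of the plasma membrane built from caveolins and cavins, abundant in these cells and in the endothelium beside them. Ager encodes the receptor for advanced glycation end products, which in the lung is mainly a type 1 cell protein, Aqp5 is the apical water channel of the type 1 cell, and Aqp1 is the water channel of capillary endothelium and red cells. Pdpn (podoplanin) is also made by lymphatic endothelium and mesothelium, Hopx by heart muscle, and the caveolins Cav1 and Cav2 by endothelium and adipocytes.

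The study looked at vessel remodelling in pulmonary hypertension. Whole lung RNA was hybridised to the Affymetrix MG-U74 version 2 set, which has array types A, B and C with different probe sets. The groups were titled Norm and hypoxia for 10 h, 2 d, 4 d and 6 d, with 2 samples each (1a and 1b), and every sample was put on the 3 array types. The hypoxia groups breathed 10% oxygen in a chamber. Norm is not spelled out in the labels, and its description speaks of a rejection, which its title does not. Strain, genotype and age are not given in the sources used here, nor is it said that 1a and 1b were separate animals, so the p-values cover the spread between samples that may differ only technically. In whole lung, fewer cells of a type and less RNA per cell cannot be told apart.

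Several arrays stood apart, and this bears on the values that follow. The Norm 1a array titled A stands in the table of B arrays, where its Spearman correlation with the other B arrays was -0.00277 to 0.00963, and it was left out. Every comparison of an A probe set with Norm therefore rests on Norm 1b alone. Over 1303 genes on both types, deviations from the gene mean on that A array correlated with the B array of its own label at a Pearson r of 0.00446, and with the B array of 4 d 1a at 0.165. An A array matched its own label best in 3 of 9 cases on B and in 4 of 9 on C. The 3' to 5' ratio of Gapdh, a sign of RNA quality or labelling, was 3.64 to 4.6 on the 2 d arrays and 1.4 to 1.68 on the 6 d arrays. It was 0.815 to 1.51 on the Norm arrays. The ratio of beta-actin was 0.0862 on the A array of 10 h 1a and 0.496 to 4.62 on the other A arrays. The 2 d and 6 d arrays were deposited in a run apart from those of 10 h, 4 d and Norm. For 10 h, 4 d and Norm, the A arrays also stand in a run apart from the B and C arrays. Comparisons of 2 d or 6 d with Norm therefore cross runs of deposit. The part of these differences in the results below was not tested.

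No member probe set passed an adjusted p of 0.05 (limma, Benjamini-Hochberg over all probe sets) in any comparison with Norm. At 10 h the members had 0 calls of 12, against a background of 0% of all probe sets called. At an unadjusted p under 0.05 they had 1 of 12, against 6.11% of all probe sets. At 2 d they had 0 calls, against 1.86% called, and 2 at the unadjusted threshold, against 18.9%. At 4 d they had 0 calls, against 0.00775% called, and 1 at the unadjusted threshold, against 6.13%. At 6 d they had 0 calls, against 0% called, and 2 at the unadjusted threshold, against 9.17%. Over the mean of the hypoxia groups they had 0 calls, against 0% called, and 2 at the unadjusted threshold, against 7.79%. The test for any difference among the 5 groups also called 0 members, against 1.24% called, and 5 were at the unadjusted threshold, against 19.6% of all probe sets. The median log2 change of the 12 probe sets was -0.12 at 10 h, -0.22 at 2 d, -0.14 at 4 d and 0.08 at 6 d, beside a median of 0 over all probe sets at each time.

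**Figure D1:**
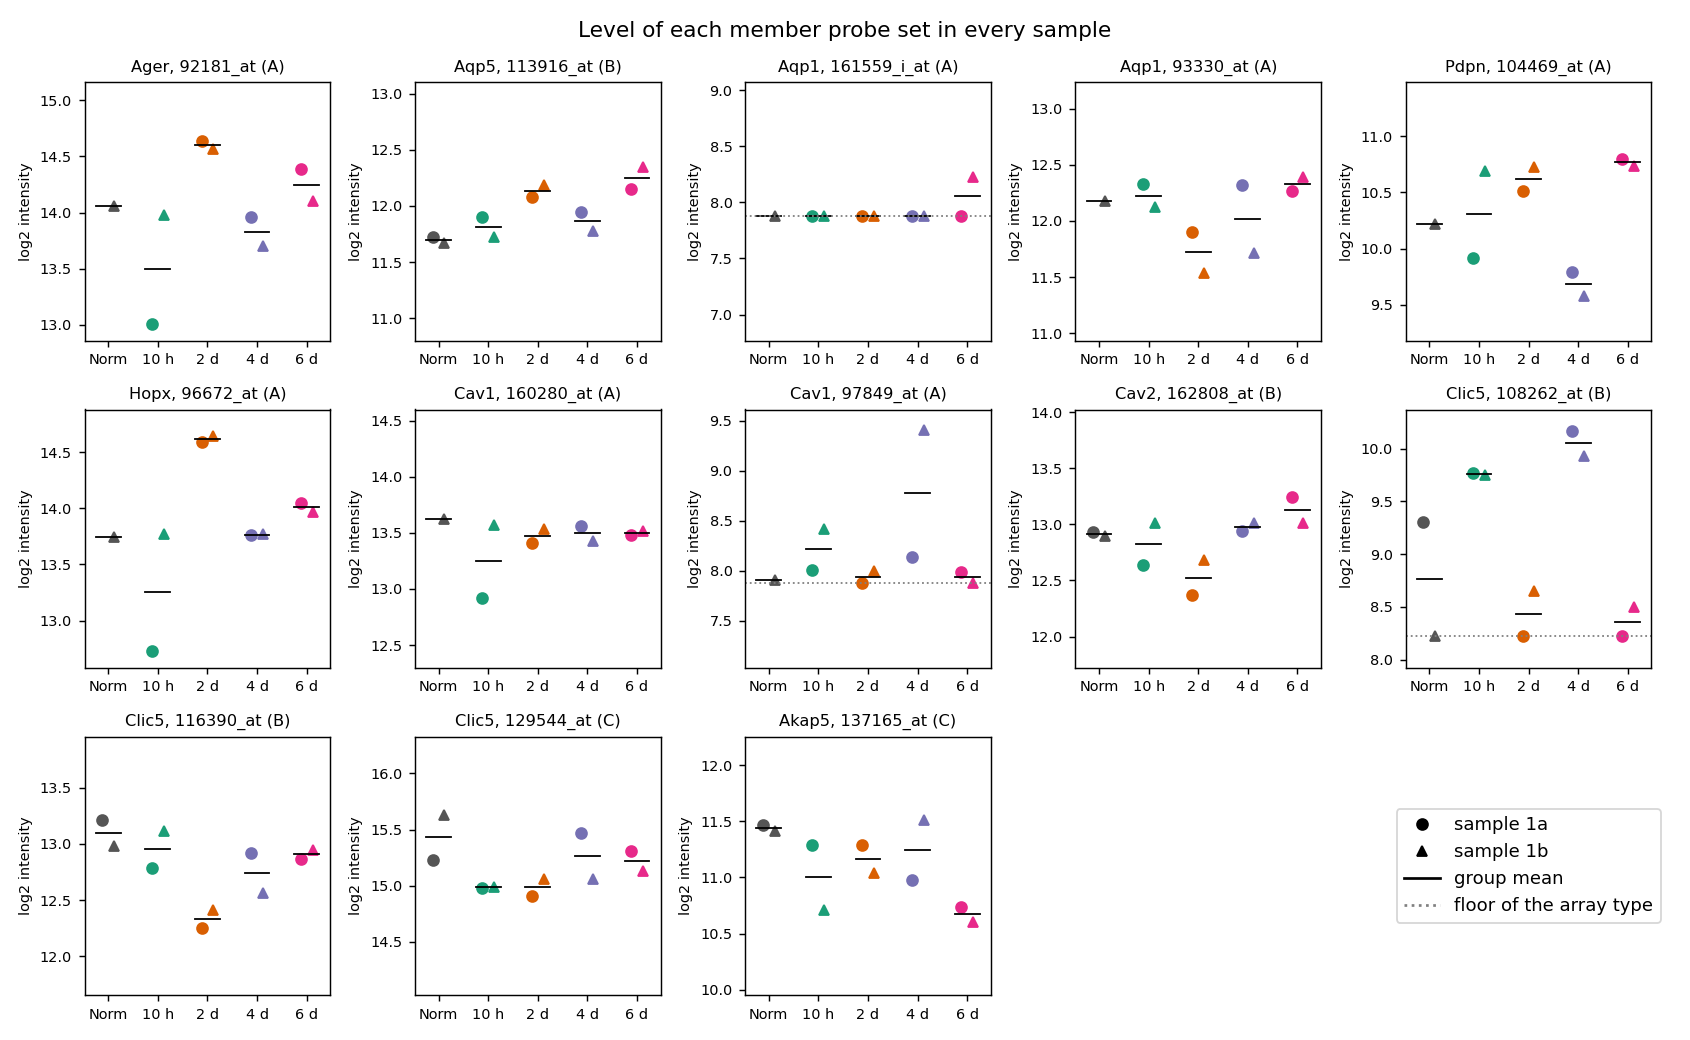
Log2 intensity of the 13 member probe sets in every sample, by group, with 1a as circles, 1b as triangles, the group mean as a bar and the detection floor of the array type as a dotted line. Ager and Hopx are lowest on 10 h 1a and highest on the 2 d arrays, while Aqp5 lies above both Norm arrays in every hypoxia sample.

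Aqp5 was the member whose hypoxia arrays all lay above the Norm arrays. How many of all probe sets have every hypoxia array on the same side of Norm was not counted. At single times 29.0% to 46.1% of the probe sets on B and C did not overlap Norm. Its log2 intensity (type B) was 11.72 and 11.67 in Norm, 11.90 and 11.72 at 10 h, 12.08 and 12.19 at 2 d, 11.95 and 11.78 at 4 d, and 12.15 and 12.35 at 6 d. The 10 h 1b array was the closest to Norm, and equal to Norm 1a at 2 decimals. The log2 change was 0.12 at 10 h, 0.44 at 2 d, 0.17 at 4 d and 0.55 at 6 d (SE 0.14 each). The adjusted p was 0.993, 0.142, 0.895 and 0.299 at these times, so the difference did not pass the test at any of them. Over all hypoxia groups together it was 0.32 ± 0.11 (SE), with an adjusted p of 0.568. The larger changes, at 2 d and 6 d, are those of the groups deposited in a run apart from Norm. Time and run cannot be told apart there.

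The promoter of Aqp5 is shown because its hypoxia arrays all lay on the same side of both Norm arrays, together with 1 of the 2 Hopx promoters, both of which hold the letters searched. ACGTG, searched on both strands, is the core that hypoxia-inducible factors bind, and it overlaps the E-box. Both sequences are from RefSeq (GRCm38.p6), 300 bases around a start, 5′ to 3′ on the gene's strand, with these letters, on either strand, in capitals. They lie at chr15:99590778-99591077 on the plus strand and chr5:77095218-77095517 on the minus strand.
Aqp5: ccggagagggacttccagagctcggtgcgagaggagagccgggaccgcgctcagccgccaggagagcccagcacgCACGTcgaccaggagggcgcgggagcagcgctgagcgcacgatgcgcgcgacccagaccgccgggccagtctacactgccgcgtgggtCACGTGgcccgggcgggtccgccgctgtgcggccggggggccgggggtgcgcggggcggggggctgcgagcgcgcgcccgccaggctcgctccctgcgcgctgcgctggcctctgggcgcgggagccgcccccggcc
Hopx: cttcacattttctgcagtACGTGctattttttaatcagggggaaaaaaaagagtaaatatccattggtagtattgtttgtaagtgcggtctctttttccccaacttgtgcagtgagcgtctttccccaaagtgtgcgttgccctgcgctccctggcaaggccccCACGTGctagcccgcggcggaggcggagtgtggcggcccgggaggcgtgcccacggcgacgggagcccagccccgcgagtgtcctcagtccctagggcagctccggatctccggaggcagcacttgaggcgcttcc
Each of these windows held the letters at 2 places. Of 11 promoters listed for the 9 genes, 5 held ACGTG on either strand (Aqp5, Cav1, Pdpn and both of Hopx), against 19.6% of all 32851 promoters. GGAATG, also searched on both strands, which TEAD factors bind, was in 0 of 11, against 14.7% of all. A match is a description of letters, not a binding site.

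Ager and Hopx, both on the A arrays, followed each other from array to array. Ager had a log2 intensity of 14.06 in Norm 1b, 13.01 and 13.98 at 10 h, 14.64 and 14.57 at 2 d, 13.96 and 13.70 at 4 d, and 14.39 and 14.10 at 6 d. Hopx, a homeodomain-only protein, had 13.74 in Norm 1b, 12.73 and 13.77 at 10 h, 14.59 and 14.64 at 2 d, 13.76 and 13.77 at 4 d, and 14.05 and 13.97 at 6 d. Both were lowest on 10 h 1a and highest on the 2 d arrays. The change at 2 d against Norm was 0.54 ± 0.41 for Ager (adjusted p 0.528) and 0.88 ± 0.40 for Hopx (adjusted p 0.284). With quantile normalization these changes at 2 d were 0.04 and 0.46.

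The 10 h values of both genes depended on 1 sample. The change at 10 h against Norm was -0.57 ± 0.41 for Ager and -0.49 ± 0.40 for Hopx. Without 10 h 1a it was -0.08 for Ager and 0.04 for Hopx. Without 10 h 1b it was -1.06 and -1.01. The A array of 10 h 1a is the one with a beta-actin 3' to 5' ratio of 0.0862. The part of this ratio in the values of Ager and Hopx was not tested.

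Over the 9 A arrays and 7520 probe sets with 1 symbol, the log2 values most like those of Ager were Rps28 (Pearson r 0.993), Ybx1 (0.982) and Gnai2 (0.98). Hopx came at rank 10 with 0.962, and Pdpn at rank 518 with 0.656. These arrays share their scaling and their differences in RNA quality, so the likeness is a description only.

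Pdpn, a sialomucin-like membrane protein on the type 1 cell surface, was lowest at 4 d. Its log2 intensity (type A) was 10.22 in Norm 1b, 9.92 and 10.69 at 10 h, 10.51 and 10.73 at 2 d, 9.79 and 9.58 at 4 d, and 10.80 and 10.74 at 6 d. The 4 d arrays lay below all the others, and 10 h 1a was the next lowest. The change was -0.54 ± 0.31 at 4 d against Norm (adjusted p 0.882) and -0.62 ± 0.25 at 4 d against 10 h (adjusted p 0.569). Without 4 d 1a, whose A array did not match its B and C arrays, the difference of 4 d against 10 h was -0.72. It was -1.01 without 10 h 1a and -0.24 without 10 h 1b.

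Aqp1 was lowest on the 2 d arrays and 4 d 1b. Its log2 intensity (type A) was 12.18 in Norm 1b, 12.33 and 12.12 at 10 h, 11.90 and 11.54 at 2 d, 12.32 and 11.71 at 4 d, and 12.27 and 12.39 at 6 d. The change at 2 d against Norm was -0.46 ± 0.27 (adjusted p 0.41), and at 6 d against 2 d it was 0.61 ± 0.22 (adjusted p 0.289). A list of red cell genes, which like Aqp1 mark erythrocytes, had all 9 tested genes higher at 2 d than in Norm, against 49.9% of all probe sets. Of these genes 0 passed the test, and the summed intensities were 43200 and 55400 at 2 d against 22300 in Norm 1b. Hba-a1 (type A) made up most of these sums, with 29400 and 42000 at 2 d and 13300 in Norm 1b. The part of red cells in the Aqp1 values was not tested. The other Aqp1 probe set was at the floor on 8 of 9 arrays and was not tested.

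The caveolins did not pass the test in any comparison. Cav1, the main structural protein of caveolae, has 2 probe sets on type A. The one above the floor on every array had a log2 intensity of 13.62 in Norm 1b, 12.92 and 13.57 at 10 h, 13.41 and 13.53 at 2 d, 13.56 and 13.43 at 4 d, and 13.48 and 13.52 at 6 d. Apart from 10 h 1a, its hypoxia arrays lay close to Norm 1b, between 13.41 and 13.57. Its change was -0.38, -0.15, -0.12 and -0.12 at 10 h, 2 d, 4 d and 6 d (SE 0.29 each), and that at 10 h was -0.05 without 10 h 1a and -0.70 without 10 h 1b. The other probe set, at the floor on 2 of 9 arrays, gave 0.86 ± 0.45 at 4 d (adjusted p 0.869), which was 1.5 without 4 d 1a and 0.22 without 4 d 1b. The 2 Cav1 probe sets did not move together, with a Pearson r of 0.0234 over the 9 arrays. The probe sets most like the first were those of Aldh1a1 (0.955), Rnf26 (0.937) and Lamp1 (0.928).

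Cav2, the partner of Cav1 and its neighbouring gene on chromosome 6, was lowest at 2 d. Its log2 intensity (type B) was 12.93 and 12.90 in Norm, 12.64 and 13.01 at 10 h, 12.37 and 12.68 at 2 d, 12.94 and 13.01 at 4 d, and 13.24 and 13.01 at 6 d. The change was -0.39 ± 0.20 at 2 d against Norm (adjusted p 0.332) and 0.60 ± 0.20 at 6 d against 2 d (adjusted p 0.231).

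**Figure D2:**
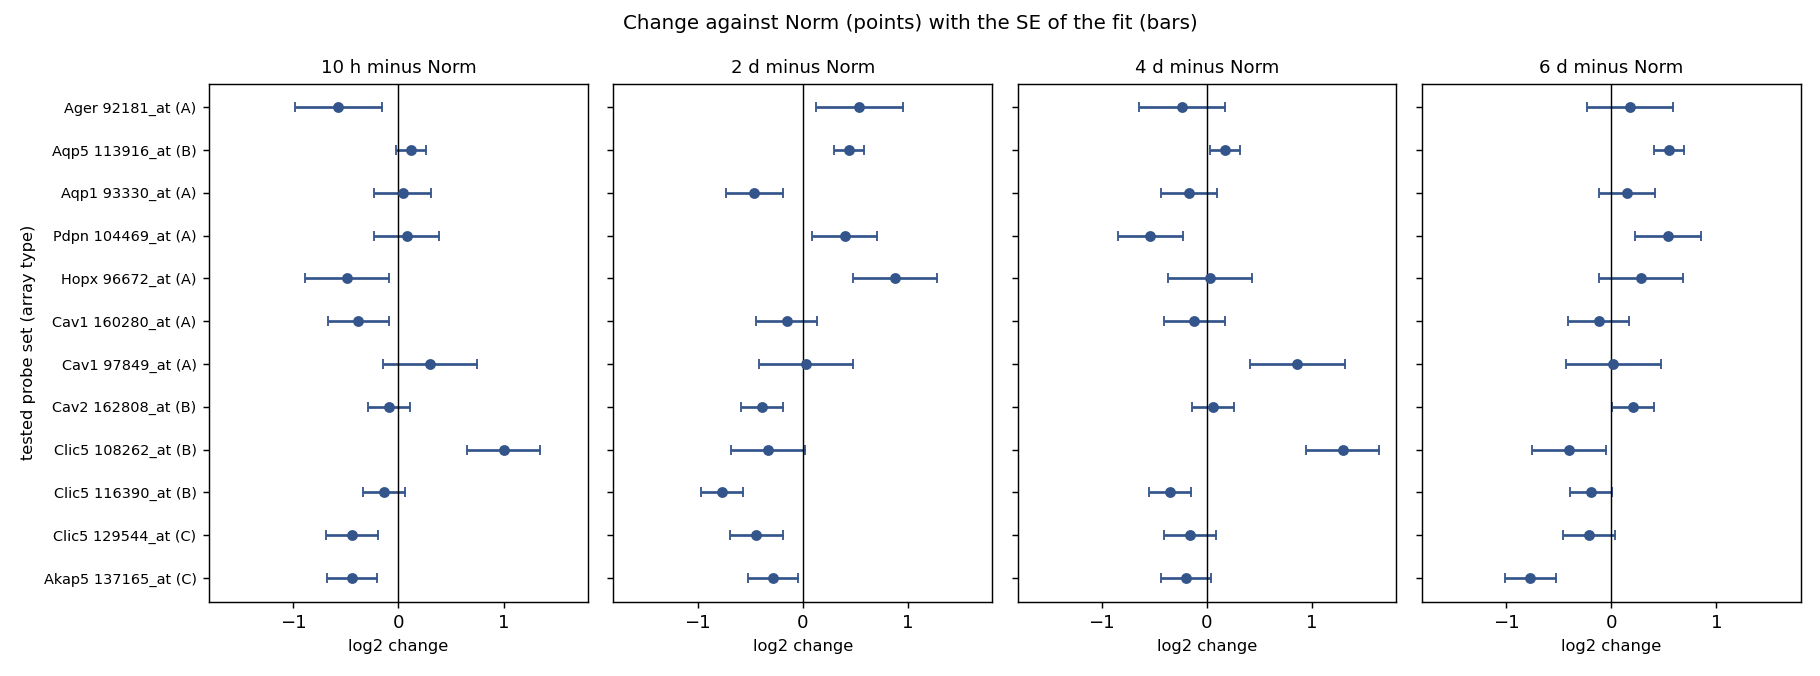
Log2 change of the 12 tested member probe sets in each hypoxia group against Norm, with the SE of the fit as bars, and the array type in parentheses. Aqp5 is above 0 at every time, from 0.12 to 0.55, as is the Cav1 probe set near the floor, from 0.02 to 0.86. The other Cav1 probe set, Akap5 and the Clic5 probe sets above the floor on all arrays are below 0 at every time. None of the 12 passed the test.

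Clic5, a chloride intracellular channel protein tied to the actin cytoskeleton, had 3 probe sets that gave different patterns. The type B probe set that reached the floor on 3 of 10 arrays had a log2 intensity of 9.30 and 8.22 in Norm, 9.77 and 9.75 at 10 h, 8.22 and 8.65 at 2 d, 10.17 and 9.93 at 4 d, and 8.22 and 8.50 at 6 d, where 8.22 is the floor. The 10 h and 4 d arrays lay above both Norm arrays, and the Norm arrays differed by more than the 10 h or 4 d pair. The change was 1.0 ± 0.35 at 10 h (adjusted p 0.686) and 1.29 ± 0.35 at 4 d (adjusted p 0.568). The 10 h change was 1.55 without Norm 1a and 0.46 without Norm 1b, and the 4 d change was 1.83 without Norm 1a and 0.75 without Norm 1b.

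These values moved with the beta-actin 3' to 5' ratio of the array. The 5 B arrays with a ratio of 0.0272 to 0.0522, those of 10 h, 4 d and Norm 1a, had 9.30 to 10.17, and the 5 with a ratio of 0.474 to 4.98, those of 2 d, 6 d and Norm 1b, had 8.22 to 8.65. The part of this ratio in the Clic5 values was not tested. The ratio was 0.0453 on Norm 1a and 0.775 on Norm 1b, while both arrays of each hypoxia group fell on the same side.

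**Figure D3:**
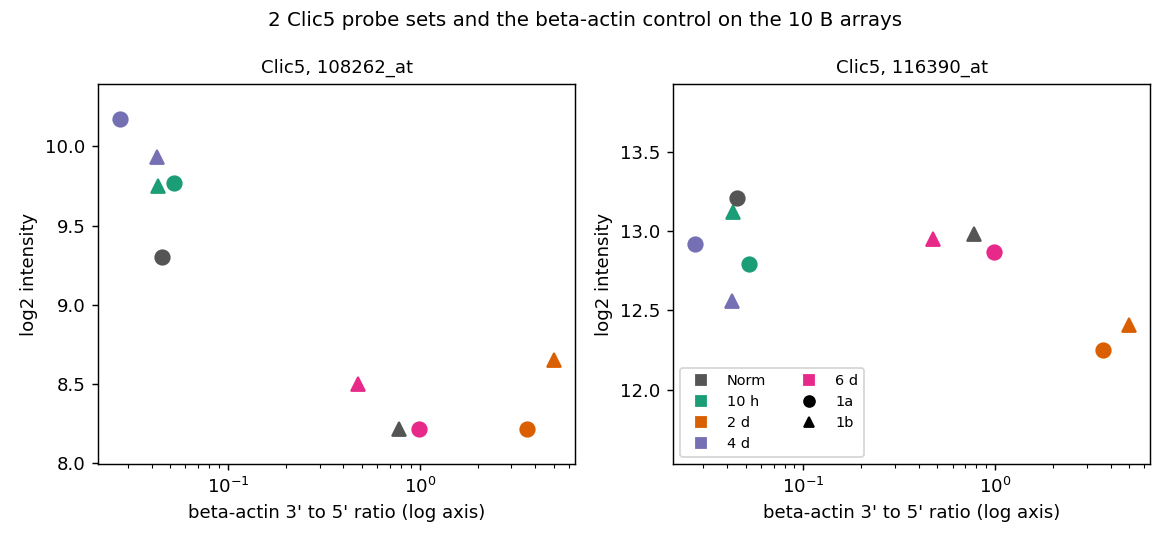
Log2 intensity of 2 Clic5 probe sets against the beta-actin 3' to 5' ratio (log axis) on the 10 B arrays, coloured by group. The probe set at left is at 9.30 to 10.17 on the 5 arrays of low ratio and at 8.22 to 8.65 on the 5 of high ratio, while the one at right overlaps, at 12.56 to 13.21 and 12.25 to 12.98.

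The other type B probe set of Clic5, above the floor on all 10 arrays, was lowest at 2 d. It had 13.21 and 12.98 in Norm, 12.79 and 13.12 at 10 h, 12.25 and 12.41 at 2 d, 12.92 and 12.56 at 4 d, and 12.87 and 12.95 at 6 d. The change at 2 d was -0.77 ± 0.20, with an adjusted p of 0.0818. The type C probe set of Clic5 had 15.23 and 15.63 in Norm, 14.98 and 14.99 at 10 h, 14.91 and 15.06 at 2 d, 15.47 and 15.06 at 4 d, and 15.31 and 15.13 at 6 d. It gave a change of -0.44 ± 0.25 at 10 h and the same at 2 d (adjusted p 0.903 and 0.381). The 2 d arrays of both probe sets lay below the Norm arrays, as did the 10 h arrays of the type C probe set.

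Akap5, which anchors protein kinase A and calcineurin at the membrane, was lowest at 6 d. Its log2 intensity (type C) was 11.47 and 11.41 in Norm, 11.29 and 10.71 at 10 h, 11.29 and 11.04 at 2 d, 10.98 and 11.51 at 4 d, and 10.74 and 10.60 at 6 d. The 10 h, 2 d and 6 d arrays lay below both Norm arrays, and the 4 d arrays spanned them. The 10 h 1b array, at 10.71, was lower than 6 d 1a, at 10.74. The change at 6 d was -0.77 ± 0.24 (adjusted p 0.37).

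Among the 6 member probe sets on B and C, which have both Norm arrays, 4 did not overlap Norm at 10 h, against a background of 29.7%. Several of the 6 are probe sets of Clic5, so these counts are not of independent genes. Aqp5 and the Clic5 probe set near the floor were higher, and Akap5 and the type C probe set of Clic5 were lower. For Aqp5 the margin was below the 2 decimals printed, with 11.72 on 10 h 1b and on Norm 1a. At 2 d 5 of 6 did not overlap, against 46.1%, with Aqp5 higher and 4 lower. At 4 d 4 did not overlap, against 29.0%: Aqp5, Cav2 and the Clic5 probe set near the floor were higher, and the other type B probe set of Clic5 was lower. Cav2 was higher by a narrow margin, with 12.94 on 4 d 1a against 12.93 on Norm 1a. At 6 d 4 did not overlap, against 37.2%: Aqp5 and Cav2 were higher, and Akap5 and the type B probe set of Clic5 above the floor on all arrays were lower.

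Between times in low oxygen, 0 members passed at 4 d against 10 h, against 0.0233% of all probe sets called, and 1 had an unadjusted p under 0.05, against 8.08%. At 6 d against 2 d 0 members passed, against 0.062% called, and 3 were at the unadjusted threshold, against 13%. For 4 d and 6 d together against 10 h and 2 d, 0 passed, against 0.0155% called, and 1 was at the unadjusted threshold, against 11%. The arrays did not overlap for 3 of 12 members at 4 d against 10 h, against a background of 34.3%. They did not overlap for 8 of 12 at 6 d against 2 d, against 43.6%: Pdpn, Aqp1, Cav2 and the Clic5 probe sets above the floor on all arrays were higher at 6 d, and Ager, Hopx and Akap5 were lower.

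**Figure D4:**
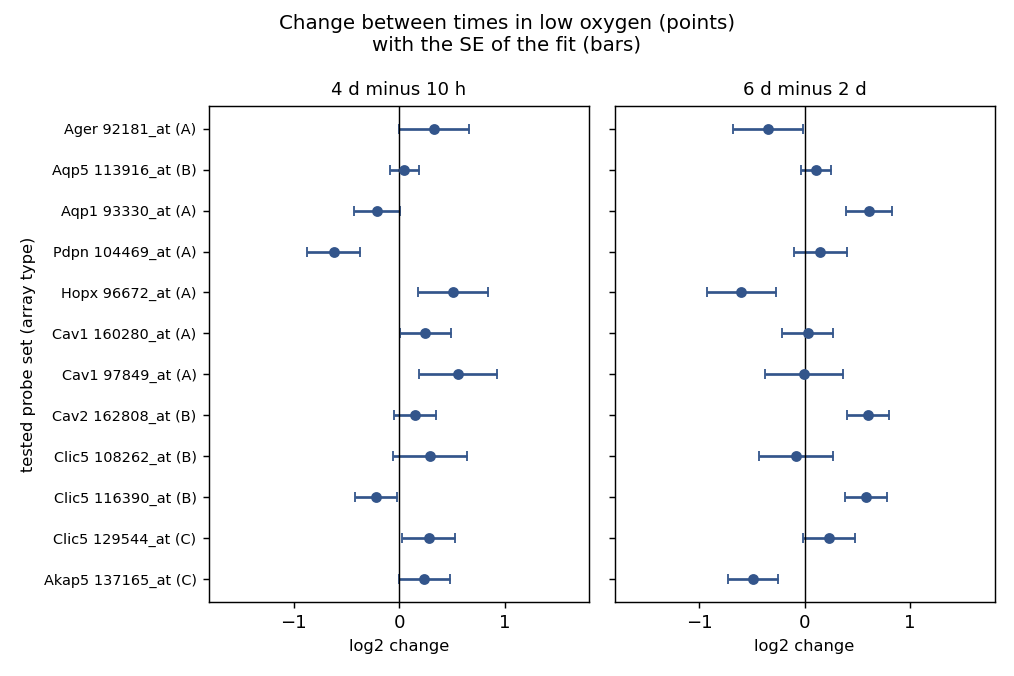
Log2 change of the 12 tested member probe sets at 4 d against 10 h and at 6 d against 2 d, with the SE of the fit as bars. Aqp1 (0.61), Cav2 (0.60) and a Clic5 probe set (0.58) are the highest at 6 d against 2 d, and Hopx (-0.60) is the lowest.

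Other genes of the same cells and structures gave few calls. At 2 d against Norm 1.86% of all probe sets were called and 18.9% had an unadjusted p under 0.05 in limma. Of 21 other type 1 cell genes tested, 0 passed in any comparison with limma. At 2 d against Norm these genes had 4 at an unadjusted p under 0.05 and a median log2 change of -0.18. Among them Ccn2, a matricellular protein, gave 2.06 ± 0.37 at 10 h (adjusted p 0.297, against the single Norm array of type A), and Sema3a, a guidance ligand, gave -0.73 ± 0.25 at 2 d (adjusted p 0.15). Other Sema3a probe sets, on types B and A, gave 0.05 ± 0.27 and 0.0 ± 0.21 at 2 d, so its probe sets disagree. Of 12 other caveolar genes, 1 fell at 2 d: Cavin2, a cavin that helps shape caveolae. Its log2 intensity (type C) was 12.55 and 12.07 at 2 d, against 14.74 and 13.82 in Norm, a change of -1.97 ± 0.30 (adjusted p 0.0212). Its probe set on type A gave 0.38 ± 0.26 for Cavin2 (adjusted p 0.479), so the 2 probe sets disagree. Of 8 other aquaporins and Clic genes, 1 fell at 2 d: Clic6, with 10.71 and 10.28 at 2 d against 11.48 and 12.12 in Norm, a change of -1.30 ± 0.22 (adjusted p 0.0298). A Clic6 probe set on type C gave -1.71 ± 0.39 at 2 d (adjusted p 0.0598). With no filter on dim probe sets both changes kept their size but not their call, with an adjusted p of 0.07 for Cavin2 and 0.0833 for Clic6. Without 2 d 1a or 2 d 1b the change of Cavin2 was -2.21 and -1.73 (adjusted p 0.0689 and 0.116), and that of Clic6 was -1.51 and -1.09 (adjusted p 0.0716 and 0.141). Both calls were also lost, at changes of -1.97 and -1.30, without 10 h 1a or without either 6 d sample. That of Clic6 was lost without 10 h 1b (-1.30), and without Norm 1b (-0.98, adjusted p 0.0583) or without both Norm 1b and 4 d 1a (adjusted p 0.0846).

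Markers of other cell types, some of which express members, were counted at 2 d against Norm. Over all probe sets at 2 d 1.86% were called, 18.9% had an unadjusted p under 0.05 in limma and 49.9% were higher. Of 11 heart muscle genes, a source of Hopx, all were lower and 4 fell (Myl7, Myl4, Tnni3 and Csrp3), with summed intensities of 15200 and 14400 at 2 d against 26400 in Norm 1b. These genes were read on type A, so each comparison rests on Norm 1b alone. They were low at the other times too: 9 of 11 were lower at 10 h and at 4 d, and all at 6 d. The median log2 change was -0.77 at 10 h, -0.94 at 2 d, -0.32 at 4 d and -0.75 at 6 d. Of 17 endothelial genes, a source of Aqp1 and the caveolins, 9 were higher and 1 rose (Emcn), with sums of 103000 and 96300 at 2 d against 97000 in Norm 1b. Of 3 lymphatic genes, a source of Pdpn, all were lower and 1 fell (Lyve1), with sums of 2320 and 2370 against 3670 in Norm 1b. Of 6 adipocyte genes, a source of caveolins, 4 were higher and 1 fell (Car3). Of 16 type 2 cell genes, 6 were higher at 2 d, 10 were lower and 1 fell (Etv5), with a median log2 change of -0.1. The sums were 235000 and 241000 at 2 d against 231000 in Norm 1b. Sftpc alone held 36700 and 42800 of these at 2 d against 7200 in Norm 1b. Its change was 2.46 ± 0.66, while Sftpb gave -0.84 ± 0.25. Neither passed the test, and both rest on Norm 1b alone. Also at 2 d, 2 of 10 skeletal muscle genes (Acta1 and Myh1), 4 of 10 airway genes (Cyp2f2, Spag6l, Sec14l3 and Ak7) and 1 of 6 leukocyte genes (Lyz1) fell. The skeletal muscle genes also rest on Norm 1b alone. Their median log2 change was -1.29 at 10 h, -0.78 at 2 d, 0.09 at 4 d and -0.58 at 6 d. At 2 d 0 of 6 mesothelial genes and 0 of 12 smooth muscle and fibroblast genes passed in limma, with 1 and 5 at an unadjusted p under 0.05. The part of these cells in the members' values was not tested.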

How the data were processed

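Lung RNA of 10 samples, 2 in each of 5 groups taken from the titles, was measured on 30 arrays, of which 29 were used. The deposited values are probe set intensities on a linear scale; the summarising software is not given in the sources used here. Trimmed by 2% at each end, the arrays' means lay between 799.8 and 799.9, so no further normalization was applied. Values below the 40th percentile of their array type were raised to that floor (236.05, 297.36 and 200.93 for A, B and C), log2 was taken, and a probe set had to exceed its floor on 2 or more arrays. limma 3.58.1 (R 4.3.3) fitted each array type with all 5 groups (lmFit, eBayes with trend, two-sided), and p-values were adjusted by Benjamini-Hochberg over the 3 types together. The code was also run on simulated data with independent noise and large changes in bright probe sets. That run does not cover the differences between arrays described above. Tables and plots were made with Python 3.11.15, pandas 2.3.3, numpy 2.4.6 and matplotlib 3.10.9. Symbols came from the platform annotation. All 9 members are named. Of other lists (type 1 cell, caveolar, aquaporin and Clic, and markers of other cells) the rule names up to 3 genes of smallest F-test p and those that pass a comparison; most that did not pass are only counted here. For Ager and Cav1 the 3 probe sets of highest Pearson correlation are named. The members and lists were chosen with earlier results of these data known. The number of arrays limits the precision.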

Additional observations from a re-analysis of the deposited data

How the results depend on the processing

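Of 175 counts of member calls recomputed under 18 other settings and 2 chosen after seeing the data, 172 kept their value. The other 3 concern any difference among the 5 groups, where 1 member, the Clic5 probe set near the floor, passed instead of 0. It passed when a probe set had to lie above the floor on at least 5 arrays (adjusted p 0.0375), and when Norm 1a (0.0285) or Norm 1b (0.0331) was left out, so leaving out a sample gave 0 to 1 calls; the cause was not tested. With the replicate block 0 members passed in every comparison, and at 2 d against Norm 217 of all probe sets passed instead of 480. The block also ended the call of Clic6 at 2 d (adjusted p 0.054, change -1.30), and not that of Cavin2 (adjusted p 0.0375). Over all probe sets the calls at 2 d were 23 to 439 when 1 sample was left out and 109 to 733 under the other settings, and those for any difference, 319 as reported, were 0 to 558 and 9 to 672. What the letters 1a and 1b stand for is not given in the sources used here. Of 26 correlations of deviations between same-lettered samples, 1 was over 0.1 and several were below -0.1 (range -0.158 to 0.134). These values do not settle if the letters mark a pairing. Of 1812 log2 changes recomputed, 1744 stayed within 1 SE, and of the 68 others 52 came from leaving out 1 sample. Leaving out both 2 d samples gives no value for the 2 d comparisons. The single usable Norm array of type A limits Ager, Hopx, Pdpn, Aqp1 and Cav1.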
